A study of Mus musculus with 15 samples.

Results

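The 8 genes described here encode CC chemokines, *Ccl2*, *Ccl3*, *Ccl4*, *Ccl5*, *Ccl6*, *Ccl7*, *Ccl9* and *Ccl12*. They were chosen by symbol, and each matched exactly 1 of the 78317 gene identifiers in the count table. The cells were MH-S, an SV40-transformed mouse alveolar macrophage line, and 15 libraries of bulk RNA-seq were made from 5 groups of 3 wells. M0 cells received medium only, and M1 cells were kept for 24 h with LPS (1 µg/mL) and IFN-γ (20 ng/mL). M2 cells received 20 ng/mL IL-4 for 24 h. The CaP group was exposed for 24 h to 0.1 mg/mL of calcium phosphate microrods (CaP-Alg-Prot/CMC(3DL)), which are nanoparticles held together by alginate and by layers of protamine and carboxymethyl chitosan. The SiO2 group received silica microrods of the same build (SiO2-Alg-Prot/CMC(3DL)) at the same concentration and for the same time. The authors state that the rod types differ in density, so equal mass concentrations hold different numbers of rods. They also report higher cytotoxicity of the SiO2 rods than of the CaP rods in MH-S cells. Each of the 3 rod wells of a material received its own particle batch, while the M0, M1 and M2 wells differed only as wells of the same cells, so p-values measure the spread between wells of 1 cell line.

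CC chemokines are small secreted proteins that draw leukocytes along a gradient by binding G protein-coupled receptors. In the lung, macrophages are a main source of them after inhaled particles or microbial products, and their genes respond to NF-κB, AP-1, interferon and STAT signalling. The monocyte chemoattractants CCL2, CCL7 and CCL12 act through CCR2, the macrophage inflammatory proteins CCL3 and CCL4 and the related CCL5 draw monocytes and T cells, and CCL6 and CCL9 are rodent chemokines that act through CCR1.

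The total count of a library lay between 8459643 and 68750050. Levels are given as CPM, counts scaled to a common library size after adjustment by the trimmed mean of M-values, and a difference was called when edgeR gave an adjusted p below 0.05 with an absolute log2 fold change above 0.5. M0 replicate 3, SiO2 replicate 2 and M2 replicate 2 stood apart on the second principal component (-42.73, -21.66 and -43.88, against -4.36 to 21.31 for the other 12 libraries), and calls of edgeR on the 8 genes and *Ccr2* that change without them are given both ways. The labels were checked on *Nos2* and *Il1b*, which respond to LPS and IFN-γ, and on *Arg1*, which responds to IL-4. *Nos2* had 48 to 88 counts in the M1 libraries and 0 in all M0 libraries, *Il1b* had 411 ± 46.9 CPM (SD, n = 3) in M1 and 1.07 ± 0.231 in M0, and *Arg1* had 1550 ± 171 in M2 and 11 ± 3.29 in M0. Of 7 macrophage markers, 6 were at 1 CPM or more in every group (*Adgre1*, *Cd68*, *Csf1r*, *Lyz2*, *Itgax* and *Ptprc*) and *Mertk* was below. Of the 5 markers that define alveolar macrophages, *Siglecf*, *Pparg*, *Chil3* and *Car4* were below 1 CPM in every group and *Marco* passed it in M1 alone (2.18 CPM), so the labelled cell type was not borne out by its defining markers. The summed level of the 7 macrophage markers was 2671 to 3612 CPM in M0, 2653 to 3056 with CaP, 2827 to 3180 with SiO2, 3227 to 3332 in M1 and 1410 to 2154 in M2, and its part in the M2 results was not tested. The summed levels of the markers of epithelium, fibroblasts, T cells, B cells and natural killer cells were at most 0.43 CPM in any library, and those of the 2 neutrophil markers at most 1.3 CPM (in M1).

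Of the 8 genes, 7 were measured well enough to be tested with the microrods, and *Ccl12* was not. With CaP microrods *Ccl3*, *Ccl4* and *Ccl7* rose over M0, by 2.87, 3.60 and 3.88 times. With SiO2 microrods no member was called, while 4 members had all 3 SiO2 libraries above all 3 M0 libraries and *Ccl6* had them below, where 18% of all tested genes were separated in either direction. M1 polarization raised 6 of the 8, from 7.76 times for *Ccl3* to 43.0 times for *Ccl5* and 46.5 times for *Ccl7*, with *Ccl12* near the limit of detection. M2 polarization lowered *Ccl3* and *Ccl9*, raised *Ccl7*, and gave a weakly measured call for *Ccl12*.

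**Figure D1:**
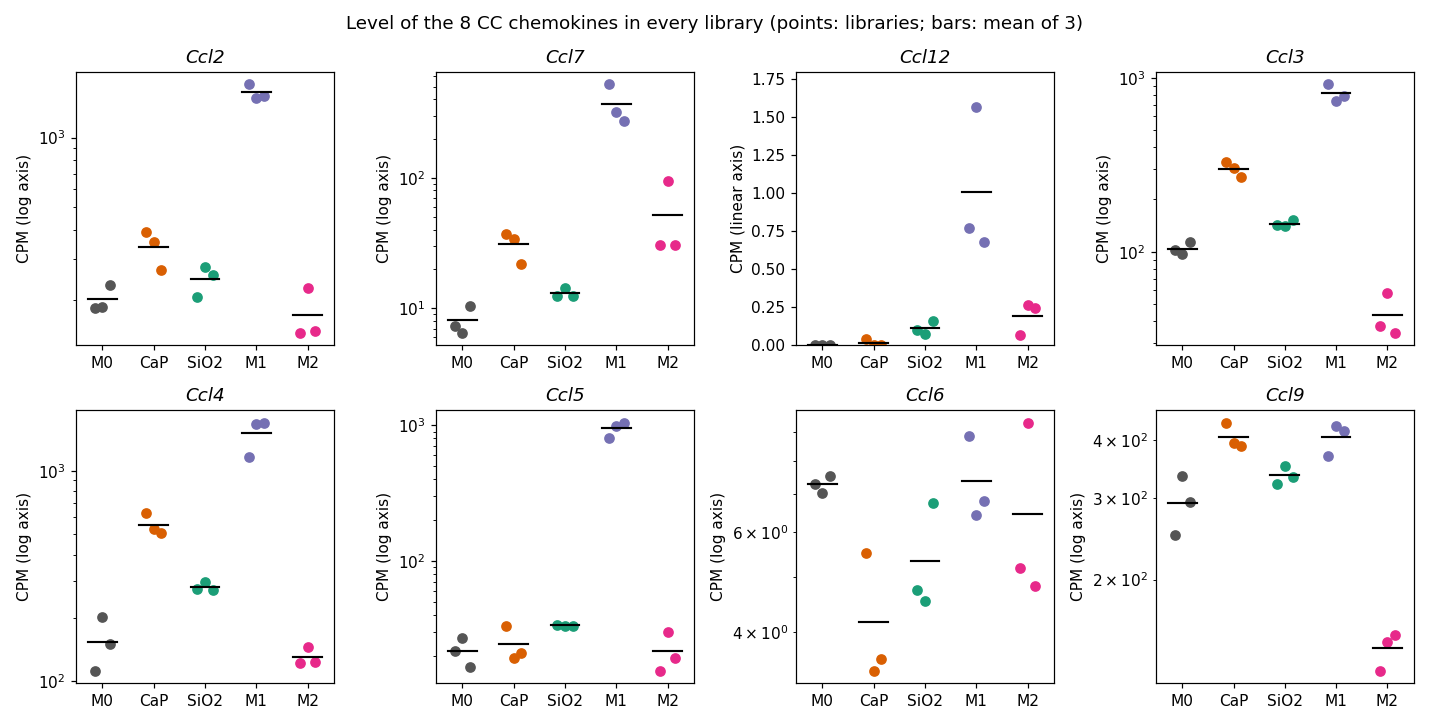
CPM of each member (vertical axis, log scale except for *Ccl12*, which is linear) in the 3 libraries of each of the 5 groups (horizontal axis); points are libraries and bars are group means. The 3 CaP libraries lie above the 3 M0 libraries for *Ccl2*, *Ccl3*, *Ccl4*, *Ccl7* and *Ccl9*, and the M1 libraries are the highest for all members except *Ccl6* and *Ccl9*.

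*Ccl2* encodes MCP-1, the main attractant of CCR2-bearing monocytes. Its level was 184, 186 and 232 CPM in the M0 libraries, 390, 355 and 269 with CaP, and 205, 276 and 256 with SiO2. The CaP libraries did not overlap with M0, while the SiO2 libraries did, through M0 replicate 3. The log2 fold change of CaP over M0 was 0.75 (standard error 0.19, 95% interval 0.34 to 1.17), which edgeR did not call (adjusted p = 0.118) and DESeq2 did (adjusted p = 0.0378). For SiO2 it was 0.29 (interval -0.12 to 0.71, adjusted p = 0.687 by edgeR), and 0.33 without the libraries that stand apart. In M1 *Ccl2* stood at 1698, 1489 and 1516 CPM, 7.83 times the M0 level (2.97 ± 0.22 on the log2 scale with its standard error, adjusted p = 5.98e-07), and in M2 it stood at 144, 225 and 147 CPM. The M2 libraries overlapped with M0 through replicate 2, and the log2 fold change was -0.22 with and -0.35 without the libraries that stand apart (adjusted p = 0.649 and 0.339). *Ccl2* overlaps *Gm17268* on the opposite strand in the GENCODE annotation used for names, by the span of the whole genes. The library protocol does not mark strand, so reads from bases shared by the pair cannot be told apart. Whether their exons overlap was not tested.

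*Ccl7* encodes MCP-3, a ligand shared by CCR1, CCR2 and CCR3. It was scarce in M0, at 7.30, 6.50 and 10.5 CPM, and stood at 37.4, 33.7 and 21.7 CPM with CaP and at 12.5, 14.3 and 12.4 CPM with SiO2. All 6 rod libraries were above all M0 libraries, and the CaP libraries were above the SiO2 libraries. The CaP rise was 1.96 on the log2 scale (standard error 0.26, adjusted p = 0.0163). The value was 1.87 without M0 replicate 1 and 1.88 without CaP replicate 2, where it was not called (adjusted p = 0.114 and 0.0624), nor was it called in the model of all 15 libraries (1.96, adjusted p = 0.0576). With SiO2 the log2 fold change was 0.71 (interval 0.13 to 1.29, adjusted p = 0.469). M1 libraries held 521, 317 and 274 CPM, and M2 libraries held 30.4, 94.8 and 30.4 CPM. *Ccl7* was the only member besides *Ccl12* that was called higher in M2 than in M0, by 2.68 on the log2 scale (standard error 0.44, adjusted p = 0.00301). The highest M2 value was that of replicate 2, and without the 3 libraries that stand apart the rise was 2.13 (adjusted p = 0.00381).

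*Ccl12* encodes MCP-5, another CCR2 ligand of the mouse. It was barely detected. It had 0 counts in each M0 library, 2, 0 and 0 with CaP, 2, 1 and 4 with SiO2, 9, 23 and 7 in M1, and 1, 2 and 17 in M2. It had enough counts to be tested only in the model of 15 libraries, through its M1 libraries. Its calls that involve M1 are thus not independent of the filter on low counts. Only the M1 group lay clearly above 3 counts in every library, the limit that a count of 0 allows. Against that limit its M1 level of 1.01 ± 0.490 CPM was at least 4.87-fold higher than M0 (adjusted p = 9.26e-05) and at least 9.07-fold higher than CaP (adjusted p = 4.34e-05). The call of M2 over M0 (adjusted p = 0.0338) is given without a fold, because the M2 mean of 0.192 CPM is below the M0 limit of 0.207 CPM. That call was lost without M2 replicate 3, the deepest library, without each of the M0 replicates in turn, without the 3 libraries that stand apart (0.0898) and by DESeq2 (0.0612). These limits cover counting error only, since the reads carried no molecular identifiers.

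*Ccl3* encodes MIP-1α, a ligand of CCR1. Its M0 libraries stood at 102, 97.3 and 114 CPM, its CaP libraries at 330, 302 and 268, and its SiO2 libraries at 143, 140 and 153. The 3 groups were fully separated, in the order M0, SiO2, CaP. CaP raised it by 1.52 on the log2 scale (standard error 0.14, adjusted p = 0.00278), and the call was kept in all 6 fits that left out 1 library, with adjusted p-values of 0.0046 to 0.0221. SiO2 gave 0.48 (interval 0.17 to 0.78, adjusted p = 0.359). M1 libraries held 916, 739 and 780 CPM (2.96 above M0 on the log2 scale, standard error 0.20, adjusted p = 2.65e-07). In M2 *Ccl3* fell to 37.6, 58.0 and 34.3 CPM, which is -1.28 on the log2 scale (standard error 0.19, adjusted p = 0.00126).

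*Ccl4* encodes MIP-1β, an attractant of monocytes and T cells whose gene lies next to *Ccl3* on chromosome 11. It stood at 112, 201 and 150 CPM in M0, 627, 531 and 507 with CaP and 273, 297 and 272 with SiO2. These 3 groups were again fully separated in the order M0, SiO2, CaP. The CaP rise was 1.85 on the log2 scale (standard error 0.21, adjusted p = 0.0072), was kept in all 6 fits without 1 library (0.0101 to 0.0446), and was not called without the 3 libraries that stand apart (1.81, adjusted p = 0.0636). With SiO2 the log2 fold change was 0.86 (interval 0.41 to 1.32, adjusted p = 0.252 by edgeR and 0.0629 by DESeq2). M1 libraries held 1167, 1668 and 1693 CPM (3.29 above M0 on the log2 scale, standard error 0.22, adjusted p = 3.06e-07). Unlike *Ccl3*, *Ccl4* was not called in M2, where it had 122, 146 and 123 CPM (log2 fold change -0.24, interval -0.68 to 0.20). Per kilobase of transcript the ratio of *Ccl4* to *Ccl3* within a library was 1.73 ± 0.592 in M0, 2.15 ± 0.0916 with CaP and 2.24 ± 0.203 with SiO2, and it was 3.62 ± 0.646 in M2 (SD, n = 3 each).

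*Ccl5* encodes RANTES, which attracts T cells and monocytes and is a known target of interferon signalling. In M0 it had 22.0, 27.1 and 16.6 CPM, with CaP 33.3, 19.5 and 21, and with SiO2 34.0, 33.5 and 33.7. Here the SiO2 libraries were above both the M0 and the CaP libraries, in contrast to the order of *Ccl3*, *Ccl4* and *Ccl7*. Neither difference was called: SiO2 over M0 gave 0.62 on the log2 scale (interval 0.07 to 1.17, adjusted p = 0.495), and CaP over SiO2 gave -0.45 (interval -0.99 to 0.09, adjusted p = 1). CaP over M0 gave 0.17 (interval -0.38 to 0.71), and its sign rested on CaP replicate 1, without which it was -0.14. In M1 *Ccl5* reached 813, 982 and 1048 CPM, which is 5.43 above M0 on the log2 scale (standard error 0.30, adjusted p = 4.63e-08). In M2 it had 15.6, 30.0 and 19.6 CPM, overlapping with M0. The log2 fold change was -0.04, and -0.47 without the libraries that stand apart (adjusted p = 0.962 and 0.322).

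*Ccl9* encodes MIP-1γ, a CCR1 ligand made constitutively by macrophages. It stood at 250, 334 and 294 CPM in M0, 436, 393 and 389 with CaP and 322, 351 and 333 with SiO2. The CaP libraries were above M0 and SiO2, but the size was small, 0.47 on the log2 scale over M0 (interval 0.16 to 0.79, adjusted p = 0.148). Its M1 level, 370, 429 and 418 CPM, gave the same log2 fold change of 0.47 (interval 0.17 to 0.77), which passed the adjusted p (0.0363) but not the limit on the fold change. It passed both without M0 replicate 2 (0.57) and without M1 replicate 1 (0.53). The largest move of *Ccl9* was in M2, where it fell to 127, 147 and 152 CPM (-1.04 on the log2 scale, standard error 0.14, adjusted p = 6.46e-04), a call kept in all 6 fits without 1 library.

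*Ccl6*, a rodent CCR1 ligand known from macrophages and eosinophils, was the only tested member with all 3 CaP libraries below M0. It was low throughout, with 7.27, 7.02 and 7.53 CPM in M0, 5.52, 3.42 and 3.59 with CaP and 4.75, 4.54 and 6.74 with SiO2. The log2 fold change was -0.77 with CaP (interval -1.34 to -0.21, adjusted p = 0.167) and -0.43 with SiO2 (interval -1 to 0.14, adjusted p = 0.657), neither of them called. Without CaP replicate 1 the CaP value was -1.06 and passed the threshold (adjusted p = 0.0465). In M1 it had 8.86, 6.43 and 6.80 CPM and in M2 5.19, 9.34 and 4.82 CPM, and both groups overlapped with M0, M2 through replicate 2 alone. The M2 log2 fold change was -0.25, and -0.53 without the libraries that stand apart (adjusted p = 0.732 and 0.322). *Ccl6* also overlaps the transcript *E230016K23Rik* on the opposite strand.

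Counted over the list, CaP against M0 called 3 of the 7 tested members, all of them higher, where the same rule called 0.421% of the 16621 genes tested. The median log2 fold change of the 7 was 0.75, beside 0.06 over all genes tested. Of the 7, 5 had CaP libraries wholly above M0 and 1 wholly below, and 17.4% of all tested genes were separated in either direction. SiO2 against M0 called 0 of 7 by edgeR and 0 by DESeq2, and the edgeR rule called 0.0602% of genes. Its median was 0.48, beside -0.02 over all genes. SiO2 libraries lay wholly above M0 for *Ccl3*, *Ccl4*, *Ccl5* and *Ccl7* and wholly below for *Ccl6*, against 18% of all genes separated. Both comparisons share the M0 libraries, so their values stand side by side and are not independent.

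The rods were also compared directly, at equal mass concentration and not at equal numbers of rods. CaP against SiO2 called 0 of 7 members by edgeR, and 0.0241% of all genes. *Ccl3* was 1.04 higher with CaP on the log2 scale (interval 0.73 to 1.35), with an adjusted p of 0.0784 by edgeR, 0.0302 without the filter on low counts and 1.16e-06 by DESeq2. *Ccl7* was 1.24 higher (interval 0.69 to 1.8), with an adjusted p of 0.736 by edgeR and 0.021 by DESeq2, and *Ccl4* was 0.98 higher (interval 0.53 to 1.44), with adjusted p-values of 0.773 and 0.0717. DESeq2 thus called *Ccl3* and *Ccl7*. The intervals of *Ccl2* (0.04 to 0.88), *Ccl6* (-0.91 to 0.22) and *Ccl9* (-0.04 to 0.59) leave room for differences of moderate size, and an adjusted p above the threshold does not show that the materials acted alike. CaP libraries were wholly above SiO2 libraries for 4 members and wholly below for 1, where 8.1% of all tested genes were separated.

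**Figure D2:**
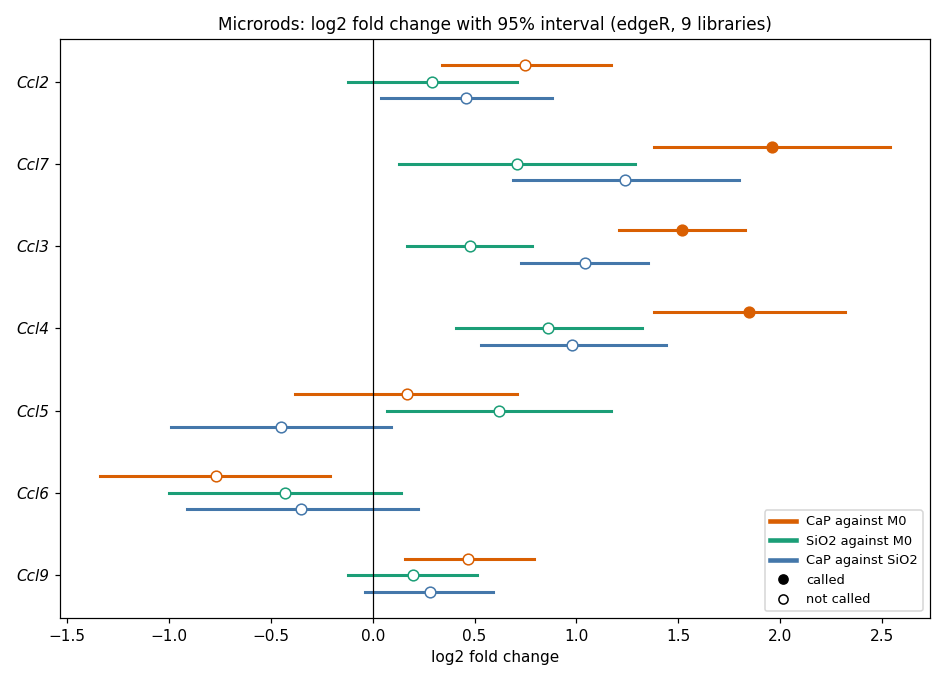
Log2 fold change (horizontal axis) of the 7 tested members (vertical axis) for CaP against M0, SiO2 against M0 and CaP against SiO2; points are edgeR estimates, lines are 95% intervals, and filled points were called. The 3 filled points are *Ccl7*, *Ccl3* and *Ccl4* with CaP, at 1.96, 1.52 and 1.85.

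The M1 and M2 groups give a scale for the rod values. M1 against M0 called 6 of 8 members higher and none lower, where 14.1% of 16654 genes were called, with a median of 3.13 beside -0.01 over all genes. Both the count and the median include *Ccl12*, which had enough counts to be tested only through its M1 libraries. On the CPM scale, the difference of CaP from M0 was 27.6% of the difference of M1 from M0 for *Ccl3* (23.2 to 31.8% over the 3 CaP libraries) and 29.6% for *Ccl4* (26 to 34.9%). It was 10.1% for *Ccl2* (5.04 to 13.9%), 6.3% for *Ccl7* (3.76 to 8.08%) and 0.293% for *Ccl5* (-0.256 to 1.24%). The shares of the MIP-1 genes were thus above those of *Ccl2* and *Ccl7* in every CaP library, and *Ccl5* overlapped with M0. With SiO2 the same share was 9.33% for *Ccl4*, 5.79% for *Ccl3*, 3.31% for *Ccl2*, 1.37% for *Ccl7* and 1.28% for *Ccl5*. *Ccl9* had the same mean in CaP and M1, 406 CPM in both, and the difference was 0.00 on the log2 scale (interval -0.30 to 0.30).

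Tested directly, CaP was below M1 for 6 of 8 members (12.6% of all genes were called), and SiO2 was below M1 for the same number (10.4% of genes). In both cases these were *Ccl2*, *Ccl3*, *Ccl4*, *Ccl5*, *Ccl7* and *Ccl12*, the last tested only through its M1 counts. The smallest of these gaps were those of CaP for *Ccl3* (log2 difference -1.44, standard error 0.18, adjusted p = 1.37e-04) and *Ccl4* (-1.44, standard error 0.21, adjusted p = 3.40e-04). The widest that did not involve a group near 0 counts was that of CaP for *Ccl5* (-5.26, standard error 0.30, adjusted p = 4.25e-08). For SiO2 the gap was -2.48 for *Ccl3*, -2.43 for *Ccl4*, -2.67 for *Ccl2*, -4.81 for *Ccl5* and -4.83 for *Ccl7*.

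M2 against M0 called 2 members higher and 2 lower, where 4.13% of all genes were called, and the median was -0.23 beside 0.07. Against M2, CaP was called higher for *Ccl2*, *Ccl3*, *Ccl4* and *Ccl9* and lower for *Ccl12* (4.43% of genes). The log2 differences were 0.97 for *Ccl2*, 2.80 for *Ccl3*, 2.09 for *Ccl4* and 1.52 for *Ccl9*. The *Ccl2* call was lost without M2 replicate 1 (adjusted p = 0.0661) and without M2 replicate 3 (0.0613). The *Ccl12* call (adjusted p = 0.0404) rested on the few counts given above. It was lost without CaP replicate 2, CaP replicate 3, M2 replicate 2 or M2 replicate 3, without the 3 libraries that stand apart (0.105) and by DESeq2 (0.156). SiO2 was called higher than M2 for *Ccl3* (1.76), *Ccl4* (1.11) and *Ccl9* (1.24) and lower for *Ccl7* (-1.97, adjusted p = 0.0156), with 3.65% of genes called. The *Ccl7* call was lost without SiO2 replicate 1 (0.0755), replicate 2 (0.0524) or replicate 3 (0.0784), and the value was -1.27 without the 3 libraries that stand apart (adjusted p = 0.0542). *Ccl7* with CaP and in M2 overlapped (log2 difference -0.72, interval -1.58 to 0.14, adjusted p = 0.574), and the difference was 0.02 without those 3 libraries.

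**Figure D3:**
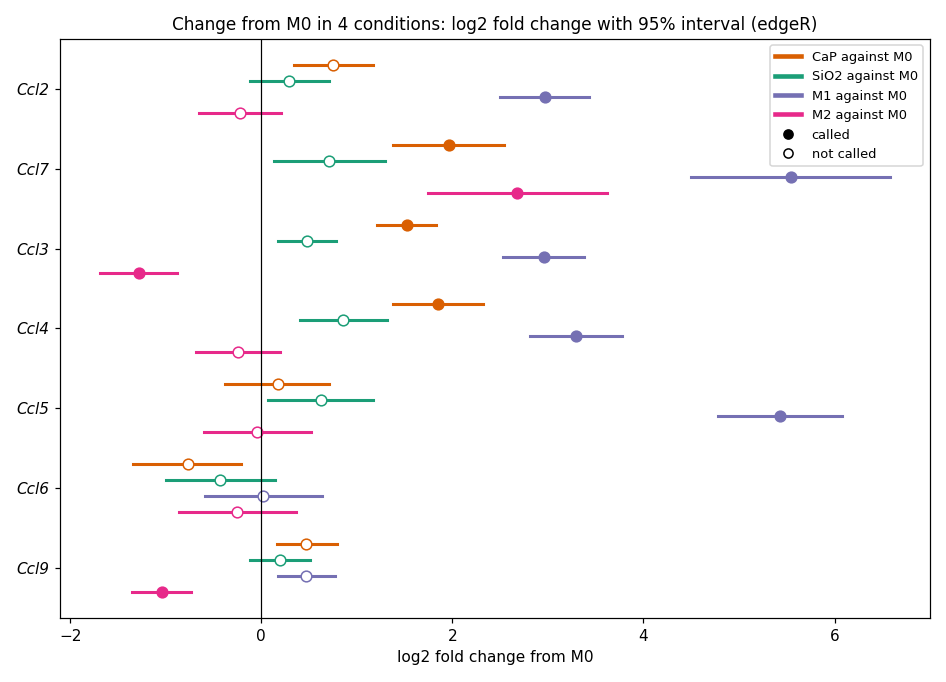
Log2 fold change from M0 (horizontal axis) of the 7 members tested in every model (vertical axis) with CaP, SiO2, M1 and M2; points are edgeR estimates from the model of 9 libraries for the rods and of 15 libraries for M1 and M2, lines are 95% intervals, and filled points were called. For *Ccl3* the M2 value of -1.28 lies on the opposite side of 0 from CaP at 1.52 and M1 at 2.96, whereas for *Ccl7* all 4 values are above 0.

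Levels were compared between genes per kilobase of transcript, by the longest coding transcript of each gene. The place of *Ccl9* depends on that choice, since its transcript had 3006 bases. In CPM *Ccl9* was the highest member in M0 (292 ± 42.1, against 200 ± 27 for *Ccl2*). In M0 *Ccl2* (246 ± 33.2 CPM per kilobase) and *Ccl4* (234 ± 67.8) were highest and overlapped with each other, and *Ccl3* (137 ± 11.5), *Ccl9* (97.3 ± 14), *Ccl5* (41.2 ± 9.93), *Ccl7* (10.1 ± 2.67) and *Ccl6* (5.05 ± 0.175) followed without overlap. With CaP *Ccl4* led alone at 841 ± 96.1, and *Ccl2* (416 ± 76.5) and *Ccl3* (392 ± 40.1) overlapped. With SiO2 the order was *Ccl4*, *Ccl2*, *Ccl3*, *Ccl9*, *Ccl5*, *Ccl7*, *Ccl6*, with no neighbours overlapping. In M1 *Ccl4* (2287 ± 450), *Ccl2* (1928 ± 140) and *Ccl5* (1781 ± 227) overlapped in sequence at the top. In M2 *Ccl2* (212 ± 56.5) and *Ccl4* (198 ± 20.0) overlapped, and so did each neighbour in the order *Ccl7*, *Ccl3*, *Ccl9*, *Ccl5*.

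Summed over the 8 members, the level per kilobase was 771 ± 89.9 in M0, 1871 ± 236 with CaP, 1113 ± 66.0 with SiO2, 7661 ± 275 in M1 and 624 ± 156 in M2 (SD, n = 3 each). The libraries of M0 (668 to 835), SiO2 (1043 to 1174), CaP (1648 to 2119) and M1 (7363 to 7904) did not overlap, and M2 (525 to 804) overlapped with M0 through replicate 2 alone, the other M2 libraries standing at 525 and 542. The make-up is given as shares of this sum, so a rise of any member lowers the shares of the others. *Ccl4* was 30.0 ± 5.79% of the sum in M0, 45.0 ± 1.51% with CaP and 38.3 ± 1.5% with SiO2, and *Ccl2* was 32.1 ± 4.24%, 22.1 ± 1.82% and 27.1 ± 2.55%. SiO2 and M0 libraries overlapped in the *Ccl2* share (24.2 to 29% and 27.3 to 35.2%). For *Ccl4* the lowest SiO2 share was 36.7% and the highest M0 share 36.5%. *Ccl5* was 23.2 ± 2.14% of the sum in M1 and 2.45 ± 0.487% with CaP. In bulk RNA, a change in how many cells express a gene and a change in RNA per cell cannot be told apart.

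**Figure D4:**
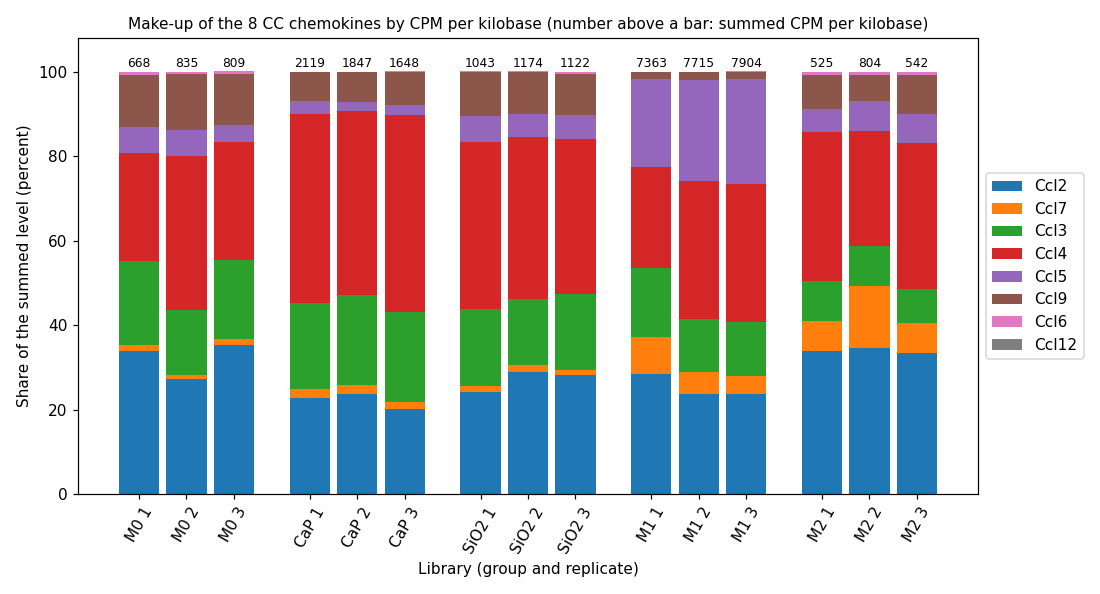
Share of each member in the summed CPM per kilobase of the 8 (vertical axis, percent) in each of the 15 libraries (horizontal axis), with the sum written above each bar. *Ccl4* takes 43.6 to 46.6% in the CaP libraries and 25.4 to 36.5% in M0, and *Ccl5* takes 20.8 to 24.9% in M1.

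The 8 genes lie in 2 groups on mouse chromosome 11. In the GENCODE annotation used for gene order, *Ccl2*, *Ccl7*, *Ccl11*, *Ccl12* and *Ccl8* follow each other, and *Ccl5*, *Ccl9*, *Ccl6*, *Ccl3* and *Ccl4* form the other group, with *Wfdc17* beyond *Ccl4*. Each group held members that were called with CaP and members that were not. Promoter sequences from RefSeq (assembly GRCm38.p6, a different build from the GRCm39 of the count table) were found for 4 of the 8, *Ccl3*, *Ccl6*, *Ccl9* and *Ccl12*. The 250 bases before the start of *Ccl3*, which was called with CaP, and of its cluster neighbour *Ccl9*, which was not, are shown on the strand of the gene, with motif matches in capitals. The first sequence spans chr11:83649379-83649628 and the second spans chr11:83578637-83578886, both on the minus strand.
Ccl3: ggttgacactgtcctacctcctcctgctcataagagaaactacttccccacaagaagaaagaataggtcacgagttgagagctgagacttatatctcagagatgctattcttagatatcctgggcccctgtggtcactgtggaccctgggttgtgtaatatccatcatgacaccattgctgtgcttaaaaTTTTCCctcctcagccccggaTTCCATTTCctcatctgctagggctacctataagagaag
Ccl9: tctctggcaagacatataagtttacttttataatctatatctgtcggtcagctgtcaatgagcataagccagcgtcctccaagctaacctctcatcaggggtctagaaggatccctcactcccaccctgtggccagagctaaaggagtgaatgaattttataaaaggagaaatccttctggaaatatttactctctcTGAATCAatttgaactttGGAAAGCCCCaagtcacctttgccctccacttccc
The search covered both strands for the NF-κB consensus, the AP-1 motif TGANTCA, the IRF-type motif GAAANNGAA, the STAT-type motif TTCNNNGAA and the NFAT core GGAAAA. In *Ccl3* the capitals mark an NFAT core 60 to 55 bases and an IRF-type motif 39 to 31 bases before the start, both on the opposite strand. In *Ccl9* they mark a stretch 53 to 47 bases before the start that matches the AP-1 pattern on both strands. They also mark an NF-κB match on the opposite strand 35 to 26 bases before the start. No motif overlapped another, and *Ccl6* and *Ccl12* had no match to these letters in the window. Over 32851 promoters of the same length, 5% held the NF-κB match, 6.75% AP-1, 7.13% the IRF-type motif, 7.02% the STAT-type motif and 20.4% the NFAT core. These matches describe letters and do not show binding.

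The receptors and scavengers of CC chemokines were followed as a list of 12, of which 6 were tested. With CaP 1 of the 6 was called, where the same rule called 0.421% of all genes tested. It was *Ccr2*, the receptor of CCL2, CCL7 and CCL12. Its level was 17.1, 11.7 and 16.3 CPM in M0, 2.17, 5.33 and 3.24 with CaP, and 4.55, 4.61 and 3.65 with SiO2. All rod libraries lay below all M0 libraries. The CaP fall was -2.14 on the log2 scale (interval -2.85 to -1.43, adjusted p = 0.0276), and was not called without M0 replicate 1 (0.115), M0 replicate 3 (0.0684) or CaP replicate 3 (0.175), nor without the 3 libraries that stand apart (0.0934). For SiO2 the value was -1.83 with an adjusted p of 0.112 by edgeR, 0.0186 in the model of all 15 libraries and 8.73e-05 by DESeq2. *Ccrl2*, an atypical receptor that binds chemerin, was 1.78 higher with CaP on the log2 scale (adjusted p = 0.0715 by edgeR and 0.00262 by DESeq2). In M1 *Ccr2* fell by 0.95 on the log2 scale (adjusted p = 0.0361), a call lost without M0 replicate 1, M0 replicate 3, M1 replicate 2 or M1 replicate 3 (up to 0.146), and *Ccrl2* rose by 2.66 (adjusted p = 3.72e-04). No receptor was called in M2 by edgeR, where the rule called 4.13% of all genes tested. All M2 libraries nevertheless lay below all M0 libraries for *Ccr2*. Its log2 fold change in M2 was -1.02 (adjusted p = 0.0541 by edgeR and 0.0166 by DESeq2).

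Of 12 other CC chemokines, 2 were tested with the rods and 4 with M1 and M2. None was called with CaP or SiO2, where the rule called 0.421% and 0.0602% of all genes tested. In each comparison 1 had all rod libraries below all M0 libraries, where 17.4% (CaP) and 18% (SiO2) of all tested genes were separated. In M1 *Ccl17* and *Ccl22*, both CCR4 ligands, were called higher, where 14.1% of all genes tested were called. These 2 had enough counts to be tested only through their M1 libraries. Their M1 calls are thus not independent of the filter on low counts. *Ccl22* stood at 30.0, 47.0 and 45.4 CPM in M1 and at 0.132 to 0.325 CPM in M0, and *Ccl17*, at 5.97 CPM in M1 and 0 counts in M0, was at least 28.8-fold higher. *Ccl24*, the CCR3 ligand eotaxin-2 and a gene of IL-4 responses, stood at 20.3, 27.2 and 20.5 CPM in M2 and 0.659, 0.846 and 1.04 in M0 (log2 fold change 4.83, adjusted p = 6.93e-09). In M2 4.13% of all genes tested were called. *Ccl24* was called lower in M1 (adjusted p = 0.00145), where each library had 1 count. Against the limit of 3 counts, M0 was at least 3.37-fold higher than M1.

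A further list of 20 genes holds regulators of CC chemokine transcription and mRNA decay, and all 20 were tested. With CaP, edgeR called 0 of them, and 0 with SiO2, where the same rule called 0.421% and 0.0602% of all genes tested. CaP libraries lay wholly above M0 for 3 and wholly below for 2, where 17.4% of all tested genes were separated. SiO2 libraries lay wholly above M0 for 4 and wholly below for 1, where 18% were separated. DESeq2 called *Tnf* with CaP, at 43.9, 54.6 and 58.1 CPM against 19.3, 35.8 and 25.0 in M0 (log2 fold change 0.97, adjusted p = 0.123 by edgeR and 0.0253 by DESeq2). It also called *Atf3*, a stress-induced transcription factor, at 64.2, 71.3 and 85.3 CPM against 41.8, 50.4 and 43.6 (0.70, adjusted p = 0.101 and 0.00744). The median log2 fold change of the list was 0.44 with CaP, beside 0.06 over all genes. In M1 9 were called higher and 1 lower, where 14.1% of all genes tested were called. *Nfkb2* and the lower *Irf1* kept the call in 2 and 1 of the 6 fits without 1 library. The 5 largest were *Nfkbiz* (3.22), an inducible NF-κB cofactor, *Zfp36* (2.44), which promotes decay of AU-rich mRNAs, *Irf7* (2.43), *Nfkbia* (2.13), the feedback inhibitor of NF-κB, and *Tnf* (2.09). In M2 *Irf7* was called higher (2.51), and *Fos* (-2.04), *Nfkbiz* (-1.62), *Tnf* (-1.22) and *Nfkbia* (-0.64) were called lower. Of all genes tested, 4.13% were called in M2. The *Tnf* call was lost without M0 replicate 2, M0 replicate 3, M2 replicate 2 or M2 replicate 3 (adjusted p up to 0.113), and that of *Nfkbia* was kept in 1 of the 6 fits, the one without M0 replicate 1.

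For each member the genes with the most similar pattern over the 5 groups were found, by the root mean square difference of the centred group means of log2 CPM among 10728 genes with at least 5 CPM in a group. For *Ccl3* they were *Clec4n* (0.25), *Ccl4* (0.36) and *Tnf* (0.36), so that *Ccl4* was the only member among the 3 nearest genes of another member. For *Ccl4* they were *Il1rn* (0.24), the interleukin-1 receptor antagonist, *Bcl2a1c* (0.29) and *Igf2bp2* (0.30). For *Ccl5* they were *Wfdc17* (0.12), *Lif* (0.13) and *Ptgs2os* (0.16), and *Wfdc17* is the gene beside *Ccl4*. For *Ccl2* they were *AC132452.2* (0.15), *Ehd1* (0.16) and *Bcl2a1a* (0.17), and for *Ccl9* *Castor2* (0.09), *Arsg* (0.11) and *Ctsl* (0.13). *Bcl2a1a* and *Bcl2a1c* are near-identical paralogs between which reads can be split. For *Ccl7* the nearest were *Muc5ac* (0.48), *Cd79b* (0.68) and *Gm12746* (0.70). The measure is not scaled to the size of a gene's changes, so its values are not comparable between members. The M2 mean of *Ccl7* also includes replicate 2, at 94.8 CPM against 30.4 in replicates 1 and 3. The nearest to the low *Ccl6* were *Cep78* (0.05), *Gpcpd1* (0.06) and *Sdc4* (0.07), and those to *Ccl12*, *Lrrc2* (0.29), *Trim12a* (0.32) and *Gm43409* (0.33), rest on few counts.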

How the data were processed

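RNA-seq was measured in 15 libraries of MH-S cells (Smart-seq2, poly-A, paired-end). The authors deposited 1 table of counts per Ensembl gene, made with nf-core/rnaseq by STAR and Salmon on GRCm39. PCR duplicates were therefore counted, and reads of paralogs or overlapping genes may be split. Symbols, transcript lengths (longest coding transcript) and gene order came from GENCODE M21, which matched 51487 of 78317 identifiers.

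From the counts, edgeR 4.0.16 (R 4.3.3) fitted quasi-likelihood models after filterByExpr and TMM scaling, of 9 libraries for the rods and M0 and of 15 for comparisons with M1 and M2, with Benjamini-Hochberg adjustment over all genes tested. The scripts were tested on simulated data, and no library pair agreed within sampling noise. The alternatives were DESeq2 1.42.0, its size factors, no filter, thinned counts, the replicate block, other sets of libraries and each library left out. The legacy quasi-likelihood and the fit without the 3 libraries that stand apart were added after seeing the data. Named genes were all 8 members, list genes called with rods, up to 5 called per list in M1 and M2, 3 nearest patterns per member and 3 label checks, and *Atf3*, *Nfkb2* and *Irf1* were named after their values were seen. The members and lists were chosen with earlier results of these data known. Some results of the lists are not reported here.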

Additional observations from a re-analysis of the deposited data

How the results depend on the processing

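The count of members called stayed within 1.5 times of the reported one in most settings. CaP against SiO2, 0 as reported, gave 1 (*Ccl3*) without the filter on low counts and 2 (*Ccl3*, *Ccl7*) by DESeq2. With the 6 compared libraries alone, M2 against M0 gave 0 in place of 4 and CaP against M2 gave 3 in place of 5, a fit with fewer samples. With 1 library left out, the count ran from 2 to 4 for CaP against M0, 3 to 5 for CaP against M2 and for SiO2 against M2, 6 to 7 for M1 against M0 and CaP against M1, 3 to 4 for M2 against M0, was 6 in each fit of SiO2 against M1, and was 0 in each for SiO2 against M0 and CaP against SiO2. CaP against M2 fell to 3 without M2 replicate 3.

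With the replicate block 2 members were called for CaP against M0 (*Ccl7*, 1.95 with an adjusted p of 0.0567, was not), 3 for M2 against M0 and 4 for CaP against M2 (without *Ccl12* in both), and no other count changed. *Ccr2* in CaP against M0 was -2.17 with an adjusted p of 0.0748. The replicate numbers did not pair the libraries: of 30 same-numbered pairs 14 had a correlation of deviations above 0.1, from -0.704 to 0.604, and the best match of a library in another group had its number in 22 of 60 cases.

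Of 859 values of single genes under an alternative, 796 kept direction and call, 37 lost the call, 10 gained it and 16 changed sign. The sign changes were all of differences that were not called. For *Ccl5* in CaP against M0 the value became -0.14 without CaP replicate 1 and -0.00 without the 3 libraries that stand apart. For *Ccl5* in M2 against M0 it became 0.10 with thinned counts, and 0.14, 0.14 and 0.03 without M0 replicate 2, M2 replicate 1 and M2 replicate 3. For *Ccl6* in M1 against M0 it became -0.10 with thinned counts, -0.00 by DESeq2, -0.03 with 6 libraries, and -0.00, -0.01 and -0.14 without M0 replicate 1, M0 replicate 2 and M1 replicate 1. For *Ccl6* in CaP against SiO2 it became 0.01 with thinned counts, for *Ccl7* in CaP against M2 0.02 without the 3 libraries, and for *Ccl9* in CaP against M1 -0.06 without CaP replicate 1 and -0.06 without M1 replicate 1. Without 1 library, these values ran from -0.14 to 0.34 for *Ccl5* in CaP against M0, -0.30 to 0.14 for *Ccl5* in M2 against M0, -0.14 to 0.11 for *Ccl6* in M1 against M0 and -0.06 to 0.05 for *Ccl9* in CaP against M1. The cause was not tested.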
